A study of Mus musculus with 12 samples.

Results

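The microRNAs (miRNAs) mmu-miR-376a-3p and mmu-miR-494-3p were read by 5 array probes each. These 10 probes were taken from the 9709 miRNA probes on the arrays, and the 2 miRNAs from the 110 that could be named. The pair was chosen on measured values, since the study had listed both as changed on these same arrays. Its lists held miR-376a-3p as higher after POVPC in both siRNA backgrounds. They held miR-494-3p as higher after OCT4 knockdown under DMSO and as lower after POVPC in siOCT4 cells. In those comparisons the values below are a description without a test, and any count of probes past a threshold there restates the selection. For miR-376a-3p the comparisons outside its lists were OCT4 knockdown under DMSO and under POVPC. For miR-494-3p they were POVPC in siNT cells and OCT4 knockdown under POVPC. A p-value is given only there, and these comparisons still share arrays with the ones that selected the miRNAs. All 10 probes passed the filter for testing, which kept a probe when the scanner software marked it well above background on 3 or more of the 12 arrays. That filter left 8620 miRNA probes.

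The cells were primary mouse aortic smooth muscle cells (MASMC), grown from the muscular wall of the aorta. Transfection lasted 48 h, with siRNA to Oct4 (siOCT4) or non-target pooled siRNA (siNT), and the cells then received DMSO vehicle or 10 μg/mL POVPC for 24 h. OCT4 is a pluripotency transcription factor, and POVPC is an oxidized phospholipid found in atherosclerotic lesions. The 2 siRNAs and 2 treatments made 4 groups of 3 one-colour arrays, namely siNT-DMSO, siOCT4-DMSO, siNT-POVPC and siOCT4-POVPC. Nothing in the labels says that the 3 came from separate cultures, so p-values measure the spread between these arrays, which may be technical. All groups, the controls included, had been transfected in serum-free medium, and knockdown was by siRNA, which lowers a transcript without deleting its gene. Neither the Oct4 transcript nor a marker of smooth muscle cells was analysed here, so neither the knockdown nor the cell type was checked.

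The pair belongs to the Dlk1-Dio3 domain, an imprinted region of distal mouse chromosome 12. There the paternal chromosome expresses the protein-coding genes Dlk1, Rtl1 and Dio3, and the maternal chromosome expresses the long non-coding RNAs Meg3, Rian and Mirg with large clusters of miRNAs. The clustered miRNAs are thought to be cut from long shared transcripts, and members of the domain are known for roles in development, muscle and blood vessels. The miR-376 family is also known for A-to-I editing of its precursors. A miRNA finds its targets mainly through its seed, bases 2 to 8 counted from the 5′ end.

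The mature miRNAs are shown first, 5′ to 3′ with the seed in capitals, because the results turn on them. RefSeq on GRCm38.p6 places miR-376a-3p at chr12:109723824-109723844 and miR-494-3p at chr12:109715367-109715388, both on the plus strand, within the hairpin genes Mir376a and Mir494.
mmu-miR-376a-3p: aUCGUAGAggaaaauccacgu
mmu-miR-494-3p: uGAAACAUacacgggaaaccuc
mmu-miR-376b-3p: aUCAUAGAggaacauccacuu
The pair shared no seed, and 0 other mature miRNAs in the RefSeq table carried either seed. The hairpins lay 8378 bases apart, with 9 other miRNA genes between them. The family member miR-376b-3p differed from miR-376a-3p at 3 positions, G4A, A13C and G20U, counted from the 5′ end with the base of miR-376a-3p first, and 1 of the 3 lay in the seed. It is shown because it was the mature miRNA nearest in sequence to every miR-376a-3p probe, at 2 or 3 mismatches among the 1678 mature sequences searched. For the miR-494-3p probes the nearest other miRNA had 3 or 4 mismatches.

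The probes of each miRNA differ only in length, so they are repeated readings of 1 molecule and not replicates. They are shown with the bases that pair with the seed in capitals. Every probe opens with a G that is not part of the complement and then runs from the 3′ end of the miRNA towards its seed.
ASMM10SMR20MIRNA100000960TV1: gacgtggattttccTCTAC
ASMM10SMR20MIRNA100000961TV1: gacgtggattttccTCT
ASMM10SMR20MIRNA100000962TV1: gacgtggattttccTCTA
ASMM10SMR20MIRNA100000963TV1: gacgtggattttccTCTACG
ASMM10SMR20MIRNA100000964TV1: gacgtggattttccTCTACGA
ASMM10SMR20MIRNA100001235TV1: ggaggtttcccgtgt
ASMM10SMR20MIRNA100001236TV1: ggaggtttcccgtgtAT
ASMM10SMR20MIRNA100001237TV1: ggaggtttcccgtgtA
ASMM10SMR20MIRNA100001238TV1: ggaggtttcccgtgtATG
ASMM10SMR20MIRNA100001239TV1: ggaggtttcccgtg
The first 5 probes read miR-376a-3p and covered 3 to 7 of its seed positions. The other 5 read miR-494-3p and covered 0 to 3 seed positions. Probes of miR-494-3p thus read its 3′ part almost alone.

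No spot was saturated. Before normalization the median signal of siOCT4-DMSO replicate 3 was 24.11, beside 5.585 to 8.729 elsewhere. Arrays that shared a scan date were taken as 1 slide, which gave 2 slides, so slide here stands for scan date. Slide 1 carried every siNT array with siOCT4-DMSO replicates 1 and 2. Slide 2 carried siOCT4-DMSO replicate 3 beside the siOCT4-POVPC arrays. Small RNA probes marked well above background numbered 7933 to 9586 in siNT-DMSO, 9390 to 10144 in siNT-POVPC, 9559 to 11759 in siOCT4-DMSO and 7704 to 8697 in siOCT4-POVPC. As bulk RNA was hybridized, less miRNA per cell and fewer cells that express it cannot be told apart.

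miR-376a-3p was dim and, after normalization, stood highest in the POVPC-treated, OCT4-depleted cells. The values are quantile-normalized log2 signals, each the mean of the 5 probes on an array. The siNT-DMSO arrays had 3.00, 3.87 and 3.16 for replicates 1 to 3, a mean of 3.34 ± 0.46 (SD, n = 3). In siNT-POVPC the values were 4.13, 4.29 and 3.98, a mean of 4.13 ± 0.15. The lowest treated array thus lay just above the highest vehicle array, siNT-DMSO replicate 2. In siOCT4-DMSO the values were 4.15, 3.91 and 3.31, a mean of 3.79 ± 0.43. In siOCT4-POVPC they were 4.56, 4.39 and 4.55, a mean of 4.50 ± 0.10. On this normalized scale all 3 siOCT4-POVPC arrays lay above every other array. Before normalization they did not. Their probes then read 8.47 to 20.9, beside 10.3 to 20.6 in siNT-POVPC and 11.4 to 34.8 in siOCT4-DMSO. Ordered by normalized mean, the groups ran from siNT-DMSO over siOCT4-DMSO and siNT-POVPC to siOCT4-POVPC. On that scale the neighbouring groups overlapped except siNT-POVPC and siOCT4-POVPC. Processed signals before normalization were only 3.34 to 34.8. Those of siOCT4-DMSO replicate 3, the bright array, were the highest (22.1 to 34.8), yet it had the lowest normalized mean of its group. Of the 60 spots 58 were well above background. The other 2, ASMM10SMR20MIRNA100000962TV1 and ASMM10SMR20MIRNA100000963TV1, fell short on siNT-DMSO replicate 1.

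miR-494-3p had another order, with siOCT4-DMSO on top and the other 3 groups close together. Its 5-probe means were 6.34, 5.72 and 6.71 on siNT-DMSO replicates 1 to 3, with a mean of 6.26 ± 0.50 (SD, n = 3). The siNT-POVPC arrays had 6.17, 5.86 and 5.79, with a mean of 5.94 ± 0.20, and overlapped the siNT-DMSO arrays. The siOCT4-DMSO arrays had 8.01, 7.34 and 7.02, a mean of 7.46 ± 0.51. Every one of them lay above all 9 arrays of the other groups. The siOCT4-POVPC arrays had 5.79, 5.84 and 5.56, a mean of 5.73 ± 0.15, and overlapped the siNT-POVPC arrays. All 60 spots were well above background, with processed signals of 25.7 to 582.

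**Figure D1:**
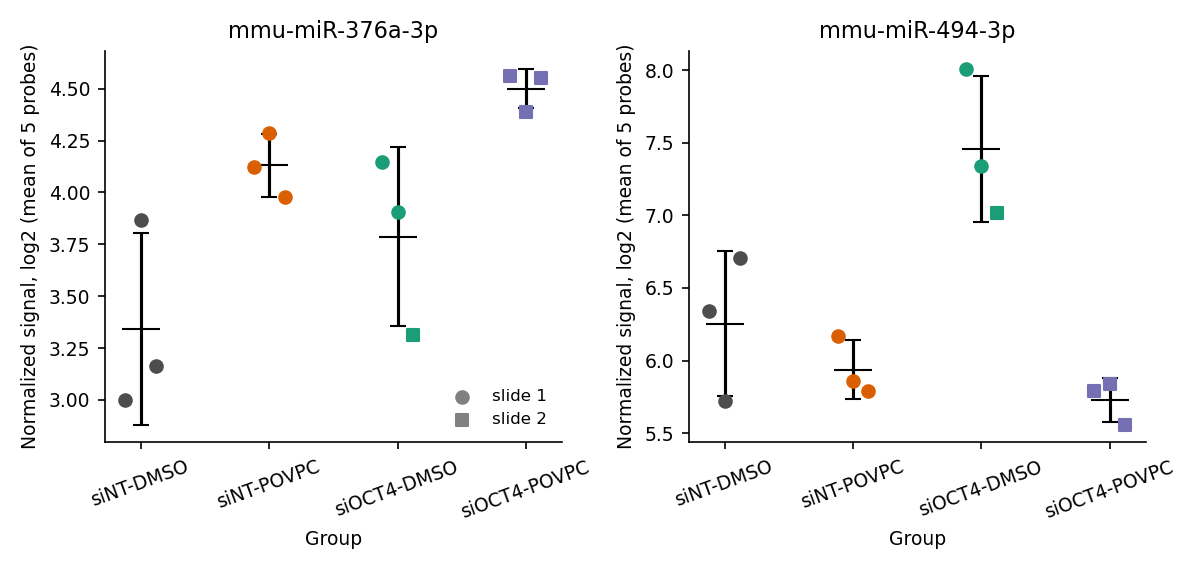
Quantile-normalized signal of both miRNAs on the log2 scale (y axis, mean of 5 probes; each panel has its own range) by group (x axis), with 1 point per array, circles for slide 1 and squares for slide 2, and bars for the group mean ± SD (n = 3). miR-376a-3p was highest on the 3 siOCT4-POVPC arrays (4.39 to 4.56) and miR-494-3p on the 3 siOCT4-DMSO arrays (7.02 to 8.01).

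In cells with OCT4, miR-376a-3p stood higher after POVPC on all 3 arrays, while the groups of miR-494-3p overlapped. From siNT-DMSO to siNT-POVPC the mean of miR-376a-3p was 0.79 higher on the log2 scale (SE 0.28), which is 1.73-fold. All 5 of its probes were higher, by 0.33 to 1.09, and the groups of 4 did not overlap. The smallest change was that of ASMM10SMR20MIRNA100000961TV1, the shortest of the 5 probes. This contrast had selected miR-376a-3p, so no test is given. For miR-494-3p the mean changed by −0.32 (SE 0.31), and the 5 probes changed by −0.42 to −0.19. In limma, which fits all probes together and adjusts p-values over the 8620 tested, the adjusted p of these 5 probes was 0.689 to 0.861. The groups of miR-494-3p overlapped for every probe. Of all probes tested, 0.22% were called at an adjusted p under 0.05 and a change of at least 1.5-fold, and 16.3% had groups that did not overlap. Of the 10 probes of the pair 0 were called. At an unadjusted p under 0.05 and 1.5-fold, limma gave 4 of them, all of miR-376a-3p, and 2.45% of all probes. The methods' t-test gave 2 of these 4 and 1.82% of all probes.

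OCT4 knockdown in vehicle-treated cells went with a higher miR-494-3p signal, while miR-376a-3p overlapped. From siNT-DMSO to siOCT4-DMSO the mean of miR-494-3p was 1.20 higher (SE 0.41), which is 2.3-fold. Its 5 probes were alike, with changes of 1.098 to 1.27, and no probe had overlapping groups. This is a description, since the contrast had selected miR-494-3p. miR-376a-3p differed by 0.44 (SE 0.36), and its probes by 0.20 to 0.83 with adjusted p values of 0.528 to 0.852 in limma. The groups overlapped for all 5 of them. Of all probes 1.39% were called and 14.4% did not overlap between these groups. None of the 10 was called. At an unadjusted p under 0.05 and 1.5-fold, limma gave 5 probes of miR-494-3p and 1 of miR-376a-3p beside 4.81% of all probes, and the methods' t-test gave 3 of miR-494-3p beside 3.33%. With all 12 arrays in 1 fit, limma called 4 probes of miR-494-3p after adjustment, and 2.46% of all probes. On slide 1 alone, with 2 siOCT4-DMSO against 3 siNT-DMSO arrays, miR-494-3p differed by 1.42 and miR-376a-3p by 0.68.

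When OCT4-deficient cells received POVPC, the pair parted. From siOCT4-DMSO to siOCT4-POVPC miR-494-3p changed by −1.73 (SE 0.30), a 3.31-fold lower level. Its probes changed by −1.92 to −1.63, and all 5 had groups that did not overlap. miR-376a-3p was 0.71 higher (SE 0.25), or 1.64-fold, with probe changes of 0.37 to 0.91 and no overlap for 4 of 5 probes. This contrast had selected both miRNAs, so no p is given for either change. Of the 8620 probes limma called 0 in the fit of these 6 arrays, a percentage of 0.0, while 22.4% had groups that did not overlap. That 0 depended on the fit. With all 12 arrays in 1 fit limma called 0.58% of all probes after adjustment, the 5 probes of miR-494-3p among them. At an unadjusted p under 0.05 and 1.5-fold, limma gave 9 of the 10 probes beside 5.13% of all, and the methods' t-test 8 beside 3.06%. After adjustment the methods' t-test gave 0 of the 10.

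Array quality differed between these groups too. Every siOCT4-DMSO array had more probes well above background than any array of siOCT4-POVPC, and the bright array was siOCT4-DMSO replicate 3. Their part in the result was not tested. Without siOCT4-DMSO replicate 3 the mean changes were −1.945 for miR-494-3p and 0.48 for miR-376a-3p. Within slide 2, where that array is the only one of its group, the 3 siOCT4-POVPC arrays differed from it by −1.29 for miR-494-3p and by 1.19 for miR-376a-3p. With slide as a block, a fit that rests on these same 4 arrays, limma called 3 probes of miR-494-3p and 4 of miR-376a-3p, and 11.8% of all probes. Normexp background correction, which adds an offset of 50 to each signal before log2, was run in place of the processed signal. It gave smaller changes, −0.86 for miR-494-3p and 0.11 for miR-376a-3p here. It also gave 0.65 for miR-494-3p after knockdown under DMSO, and 0.0787 for miR-376a-3p after POVPC in siNT cells.

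Knockdown in POVPC-treated cells was the last comparison of groups, and neither miRNA passed the threshold. The study has no list for it, so both miRNAs could be tested, although the arrays are those of the other comparisons. From siNT-POVPC to siOCT4-POVPC miR-376a-3p was 0.37 higher (SE 0.10), or 1.29-fold. The 5 probes differed by 0.30 to 0.42, and 4 had groups that did not overlap. Their adjusted p values in limma were 0.297 to 0.608, so none passed, and 4 of the 5 had an unadjusted p under 0.05, as had 11.2% of all probes. miR-494-3p differed by −0.21 (SE 0.15), with adjusted p values of 0.114 to 0.954. The lowest belonged to ASMM10SMR20MIRNA100001235TV1, which differed by −0.64 (SE 0.15), while the other 4 probes differed by −0.13 to −0.04. At an unadjusted p under 0.05 and 1.5-fold, limma and the methods' t-test each gave that probe alone of the 10, beside 4.36% and 3.74% of all probes. Of all probes 2.67% were called and 18.7% did not overlap. All siNT-POVPC arrays were on slide 1 and all siOCT4-POVPC arrays on slide 2, so slide and knockdown cannot be told apart. Blocking on slide over all 12 arrays tells them apart only through siOCT4-DMSO replicate 3. In that fit the difference was 1.09 for miR-376a-3p and turned to 0.45 for miR-494-3p.

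**Figure D2:**
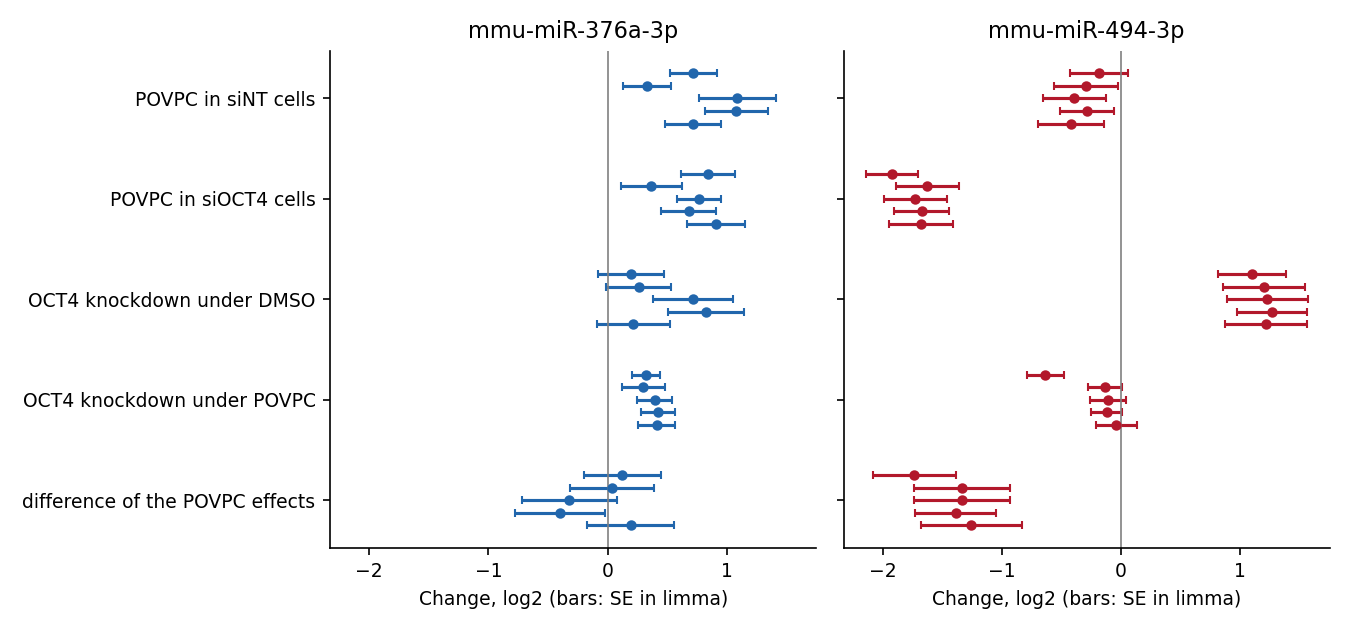
Change of each of the 10 probes on the log2 scale (x axis) in the 4 comparisons of groups and in the difference of the POVPC effects, siOCT4 minus siNT cells (rows, probes from top to bottom by identifier), with bars for the SE in limma. The 5 probes of miR-494-3p lay at 1.098 to 1.27 after knockdown under DMSO and at −1.92 to −1.63 after POVPC in siOCT4 cells, and those of miR-376a-3p were above 0 in all 4 comparisons of groups.

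The POVPC effects in both backgrounds were also set against each other over all 12 arrays. For miR-376a-3p the POVPC effect in siOCT4 cells minus that in siNT cells was −0.07 (SE 0.38), with 3 probes above 0 and 2 below, and it took either sign under other settings. For miR-494-3p the difference was −1.41 (SE 0.43), and its probes ranged from −1.73 to −1.26. Of the 8620 probes limma called 0 for this difference, again 0.0%. With slide as a block the difference was 0.40 for miR-376a-3p and −0.97 for miR-494-3p, and limma called 4.29% of all probes but none of the 10. The selection of both miRNAs had used these arrays, and the differences are a description.

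The pair did not move together over the arrays. Pearson's r between the 5-probe means over the 12 arrays was −0.364 and Spearman's rho was −0.434. Arrays of a group share treatment and most share a slide, so these are a description. Deviations from the group means had r −0.01 and rho −0.06. Over the 8 arrays of slide 1 alone r was 0.00. In siOCT4-DMSO replicate 1 was highest and replicate 3 lowest for both miRNAs. In siNT-DMSO replicate 2 was highest for miR-376a-3p and lowest for miR-494-3p. Leaving out siNT-DMSO replicates 1 and 3, the arrays farthest from the median of miR-376a-3p, gave r −0.453. Without siOCT4-DMSO replicate 1, the array with the highest miR-494-3p, r was −0.617. Probes of the same miRNA followed each other more closely, with r of 0.791 to 0.969 among the probes of miR-376a-3p and 0.953 to 0.997 among those of miR-494-3p. Between a probe of one and a probe of the other r was −0.576 to −0.176.

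**Figure D3:**
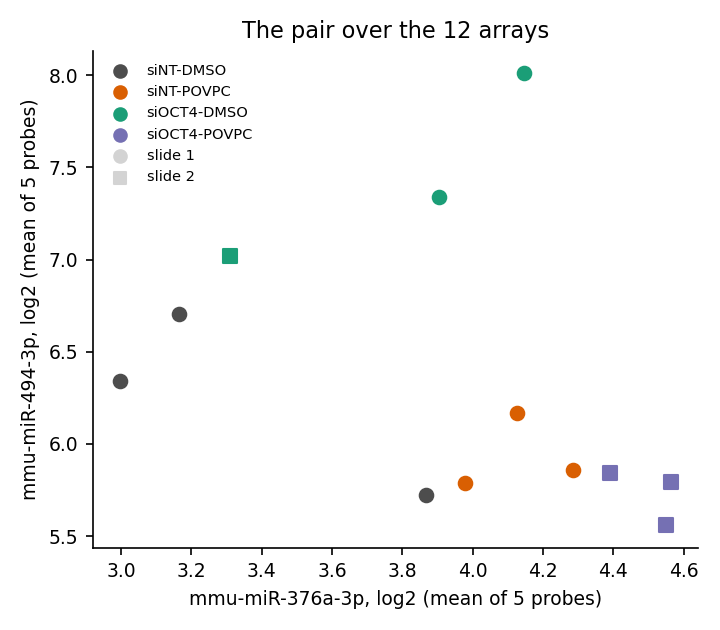
Log2 signal of miR-494-3p (y axis) against miR-376a-3p (x axis), each the mean of 5 probes, for the 12 arrays, coloured by group, with circles for slide 1 and squares for slide 2. The siOCT4-DMSO arrays lay highest for miR-494-3p (7.02 to 8.01), and the siOCT4-POVPC arrays lay farthest to the right (4.39 to 4.56).

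Array-wide measures were set beside the pair. Over the 12 arrays the number of probes well above background had r −0.27 with miR-376a-3p and 0.437 with miR-494-3p. The median signal before normalization had r −0.375 and 0.35 with them.

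Profiles over the 12 arrays were then compared with those of the 109 other named miRNAs, all of which the study had listed as changed. The profile most like miR-376a-3p was that of miR-434-3p, with r 0.982, followed by miR-299a-5p with r 0.934, and both come from the Dlk1-Dio3 domain. The other 5 named domain miRNAs had r of −0.401 to 0.481 with it, and the lowest was miR-299a-3p, from the same hairpin as miR-299a-5p. The third was miR-10a-5p (r 0.884), whose gene is in a Hox cluster. Like miR-376a-3p, both domain miRNAs had been listed as higher after POVPC in siOCT4 cells and were dim. In siNT-DMSO 0 of the 4 probes of miR-434-3p and 0 of the 5 of miR-299a-5p were well above background on all 3 arrays. For miR-434-3p the siNT-DMSO mean of 2.72 ± 0.40 (SD, n = 3) compared with 3.41 ± 0.18 in siNT-POVPC, and 3.04 ± 0.33 in siOCT4-DMSO with 3.64 ± 0.04 in siOCT4-POVPC. The lowest r, −0.836, was that of miR-6999-5p.

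For miR-494-3p the most similar profiles came from outside the domain. They were those of miR-7047-5p (r 0.824), miR-6937-5p (r 0.815) and miR-1224-5p (r 0.697). Their sequences are shown to set them beside miR-494-3p, again with the seed in capitals.
mmu-miR-7047-5p: uGAGGGAGgagggcugggucuga
mmu-miR-6937-5p: uAGCUGUAagggcugggucugugu
mmu-miR-1224-5p: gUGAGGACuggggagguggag
All 3 were rich in G, a feature looked at after the profiles were known. G made up 61.9% of miR-1224-5p, 56.5% of miR-7047-5p and 41.7% of miR-6937-5p. The median over the 110 named miRNAs was 22.7%, and miR-494-3p itself had 18.2%. The siNT-DMSO mean of miR-7047-5p, 7.15 ± 0.12 (SD, n = 3), compared with 7.77 ± 0.16 in siOCT4-DMSO and 6.99 ± 0.05 in siOCT4-POVPC. For miR-6937-5p these means were 7.695 ± 0.14, 8.21 ± 0.14 and 7.49 ± 0.09. Those of miR-1224-5p lay farther apart, at 8.39 ± 0.35, 9.08 ± 0.69 and 7.94 ± 0.07. In siNT-POVPC the 3 miRNAs had 6.94 ± 0.26, 7.42 ± 0.25 and 8.08 ± 0.14, in that order. miR-26b-5p had the lowest r, −0.93, with 7.71 ± 0.06 in siNT-DMSO, 7.21 ± 0.14 in siOCT4-DMSO and 8.02 ± 0.05 in siOCT4-POVPC. None of the 7 other named domain miRNAs had r above 0.35 with miR-494-3p.

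The domain holds 58 hairpins and 114 mature miRNAs between Dlk1 and Dio3, of which 9 could be named, the pair and 7 others. All 9 had been listed by the study on these arrays, so their directions are no independent evidence for the domain. Of the 33 tested probes of the other 7, 28 were higher and 5 lower in siNT-POVPC than in siNT-DMSO. Their median change was 0.49, beside a median of 0.00 over all tested probes, and limma called none of them. After POVPC in siOCT4 cells 24 were higher and 9 lower, with a median of 0.21 beside −0.03, and again none was called. For 14 of the 33 probes at least 1 group had no array well above background, so their fitted changes, and medians that include them, depend on the floor.

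After OCT4 knockdown some named domain miRNAs had probes called higher and others had probes called lower. Under DMSO limma called 5 of the 33 probes higher and 3 lower, and under POVPC 8 higher and 8 lower, beside 1.39% and 2.67% of all probes in either direction. Every miRNA with a called probe had been listed by the study after knockdown under DMSO, in the same direction. The counts under DMSO thus restate that selection. Those under POVPC are of the same selected miRNAs, so neither count measures the domain as a whole. The probes called higher were of miR-485-3p (3 of its 4 in both comparisons) and miR-410-5p (2, then 5, of its 5). Those called lower were of miR-495-3p (2, then 3, of 5), miR-379-3p (1 of 5 in both) and, under POVPC, miR-299a-3p (4 of 5). miR-410-5p was measured on every array. It went from 3.75 ± 0.13 (SD, n = 3) to 4.63 ± 0.29 under DMSO and from 3.68 ± 0.09 to 4.74 ± 0.11 under POVPC. No size is given for miR-485-3p, which was not well above background with any of its 4 probes in siNT-DMSO. None is given for the probes called lower either. In siOCT4-POVPC 4 of 5 probes of miR-299a-3p and 3 of 5 of miR-379-3p were well above background on no array. For miR-495-3p this held for 1 of 5 there, and in siOCT4-DMSO for 0 probes of these miRNAs. It thus did not cover every probe called lower. Beside these, neither miR-376a-3p nor miR-494-3p was called in either knockdown comparison.

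**Figure D4:**
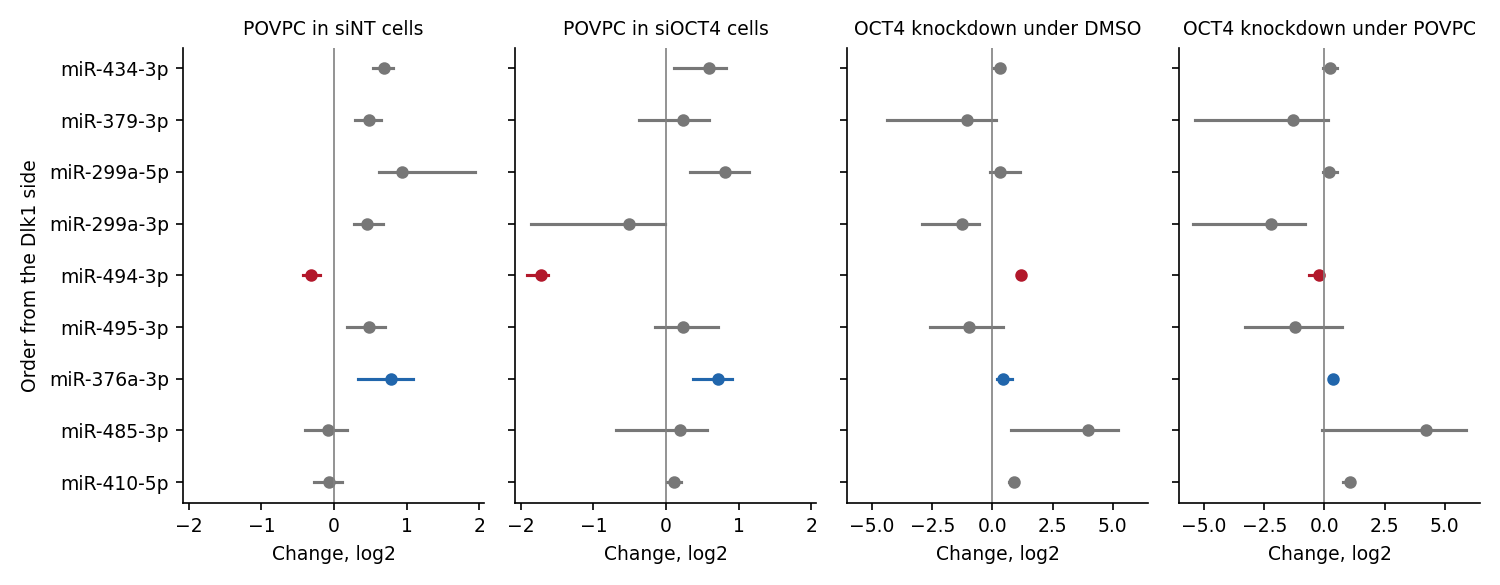
Change on the log2 scale (x axis, with 1 range for both POVPC panels and 1 for both knockdown panels) of the 9 named Dlk1-Dio3 miRNAs, in their order along the chromosome from the Dlk1 side (y axis), with points for the mean over the 4 or 5 probes and lines from the lowest to the highest probe, miR-376a-3p in blue and miR-494-3p in red. miR-494-3p lay at −0.32 and −1.73 after POVPC while miR-376a-3p lay at 0.79 and 0.71, and for probes not well above background the fitted changes of the other miRNAs depend on the floor.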

How the data were processed

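Small RNA was measured on 12 one-colour arrays, and groups came from the source name of each sample. For 9 samples the description names another group than source name and title, and it was set aside. RNA had been labelled with Cy3 at its 3′ end. The deposited scanner files give intensity values per spot (Feature Extraction 11.0.1.1), background-subtracted and not scaled between arrays. The deposited table of log2 values, quantile-normalized by the authors, was used as an alternative.

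Spots marked as outliers, 14 to 23 on each array, were dropped, and the remaining spots of a probe averaged. Processed signals were quantile-normalized over the 12 arrays, which assumes that all arrays share 1 distribution of signals. Values under 1 were raised to 1 before log2. Dim signals lie near that floor, where folds can be compressed. Probes well above background on at least 3 arrays were tested. The 6 arrays of each pair of groups were fitted in R 4.3.3 with limma 3.58.1 (two-sided, Benjamini-Hochberg adjustment), and the difference of the POVPC effects over 12 arrays. Profiles and changes of a miRNA are means over its probes, with SE from the 3 array means of each group. The methods' t-test is an unpaired, equal-variance t-test run at the study's thresholds and taken as unadjusted. The published methods give those thresholds for small RNA and name no test. With 3 arrays a group an exact permutation test cannot go below p = 0.1, so no single value was tested that way, and the number of arrays limits the precision. The script was tested on simulated data.

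The files name no miRNA. Names and sequences of 520 probes came by identifier from the study's lists, as did the mature sequences used for the content of G. Positions, the mature sequences searched, and those of the pair and miR-376b-3p came from RefSeq on GRCm38.p6. The array design refers to mm9, and no coordinate of it was used. Named were all 10 probes, domain miRNAs with a called probe, and the 3 miRNAs with the most similar profile and the 1 with the least similar for each of the pair. The other domain miRNAs are also given by their mean change, a choice made after values were seen. The members and lists were chosen with earlier results of these data known. Same-numbered arrays did not deviate together throughout (r −0.241 to 0.425, above 0.1 in 7 of 18 pairs), so replicate numbers were not taken to pair arrays. Pairs of number 2 and of number 3 outside siOCT4-POVPC did have r of 0.25 to 0.425. Between arrays of unlike number r was −0.533 to 0.326. Alternatives covered scaling, background, floor, filter, fit, test, slide, replicate number and left-out arrays.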

Additional observations from a re-analysis of the deposited data

How the results depend on the processing

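The mean change of each miRNA kept its sign under every alternative run, with 2 exceptions. Knockdown under POVPC for miR-494-3p turned from −0.21 to 0.45 with slide as a block in the fit of all 12 arrays, where that of miR-376a-3p was 1.09. The difference of the POVPC effects for miR-376a-3p, −0.07, was 0.40 with the slide block and also above 0 with normexp, a floor of 8, the strictest filter and 4 of the left-out arrays. The same block gave −0.97 for miR-494-3p there. In siOCT4 cells the slide block gave POVPC changes of 1.19 for miR-376a-3p and −1.29 for miR-494-3p in both fits. Normexp background correction (offset 50, median signal) gave smaller changes. For miR-376a-3p it gave 0.0787 for POVPC in siNT cells, 0.11 in siOCT4 cells and 0.0764 for knockdown under POVPC. For miR-494-3p it gave 0.65 for knockdown under DMSO, −0.86 for POVPC in siOCT4 cells and −0.74 for the difference. The cause was not tested.

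None of the 10 probes was called under the design as fixed, in any comparison. Calls among all probes stand in brackets where they are not in the text above. For POVPC in siNT cells 2 passed by the methods' t-test and 4 at an unadjusted p. For knockdown under DMSO 4 passed in the fit of all 12 arrays, 5 in that fit with the slide block (217), 3 by the methods' t-test and 6 at an unadjusted p. For POVPC in siOCT4 cells 2 and 3 passed with the 75th percentile of all probes (94) and of probes above background (39), 1 with normexp (13), 5 among the 5087 probes above background on all 12 arrays (30), and 5 in the fit of all 12 arrays. With the slide block 7 passed (1016), and 4 in that fit of all 12 arrays (859), 8 by the methods' t-test and 9 at an unadjusted p. For knockdown under POVPC 1 passed under each 75th percentile scaling (232 and 239), the strictest filter (158), the methods' t-test and the unadjusted p, each time ASMM10SMR20MIRNA100001235TV1. For the difference 5 passed at an unadjusted p (304), all of miR-494-3p. With the replicate number as a block (replicate block) the count was 0 in all 5 comparisons and the mean changes were those of the fit without it, for example 0.79 and −1.73.

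Leaving out 1 array left 0 calls. The mean changes of miR-376a-3p then ranged from 0.61 to 1.05 (POVPC in siNT cells), 0.27 to 0.71 (knockdown under DMSO), 0.48 to 0.89 (POVPC in siOCT4 cells), 0.30 to 0.45 (knockdown under POVPC) and −0.34 to 0.11 (difference). Those of miR-494-3p ranged from −0.58 to −0.09, 0.92 to 1.43, −1.945 to −1.45, −0.28 to −0.09 and −1.64 to −1.13. The correlation of the pair ranged from −0.617 to −0.279. Over all 8620 probes the calls of 19, 120, 0, 230 and 0 moved to 211, 415, 442, 376 and 304 at an unadjusted p with the fold threshold, and to 0, 126, 1016, 646 and 370 with slide as a block, over all 12 arrays where the 6 allow none. The fit of all 12 arrays without the block also gave 0 for POVPC in siNT cells, and 220 for knockdown under POVPC. Averaging over runs of 5 probe numbers was not run, since the bounds of unnamed runs are unknown, and slide could not be fitted as a block on the 6 arrays of POVPC in siNT cells or of knockdown under POVPC.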
